A study of Xenopus laevis with 4 samples.

Results

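Cytosolic ribosomal protein genes were the 145 genes, of 21531 in the table, whose symbol names a protein of the large (rpl, rplp) or small (rps, rpsa) ribosomal subunit and ends in .L or .S, with the rps6k kinase genes left out. They came from 79 protein families, 47 of the large subunit with 85 genes and 32 of the small subunit with 60 genes. In 66 families both homeologs, the .L and .S copies that X. laevis keeps from its parental genomes, were present, and in 13 families the rule matched a single homeolog, .L in 8 and .S in 5. The ribosomal protein genes fau and rack1 carry other symbols and are described separately, and a row with the bare symbol rps9 was left out because it names no homeolog.

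Expression was measured by Smart-seq2 RNA-seq, which copies polyadenylated RNA into cDNA and amplifies it, in ventral mesoderm dissected from X. laevis gastrulae. The 2 control libraries came from embryos given mRNA of Cas7-11, a CRISPR nuclease that cleaves RNA, without guides, and the 2 sox8 CRISPR libraries from embryos given the same mRNA with guides against sox8, so that both groups carried Cas7-11. Replicates are labelled as separate embryos and the design calls them biological. Whether a library held tissue of a single embryo or of several is not given in the sources used here.

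The ribosome is built from a large and a small subunit, each a folded ribosomal RNA bound by many small basic proteins that are needed in matched amounts. In vertebrates nearly all ribosomal protein mRNAs begin with a terminal oligopyrimidine (TOP) tract, through which their translation is switched together by growth signals. Xenopus embryos start development with ribosomes stored in the egg, and their ribosomal protein mRNAs are known to accumulate before they are recruited to polysomes.

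Between 18189895 and 24108577 reads on genes were recovered per library. The targeted gene sox8.L had 508 and 927 normalized counts in control replicates 1 and 2, against 26.9 and 25.4 in sox8 CRISPR replicates 1 and 2 (limma adjusted p = 0.0436). Its homeolog sox8.S, also considered in guide design, was low throughout, with 14.1 and 43.7 in controls, against 134 and 0 (limma adjusted p = 0.925), so that sox8 CRISPR replicate 1 lay above both controls. The 20 ventral and pan mesoderm marker genes, which include tbxt and ventx1, had 0 members listed at 0 in any library and summed to 91376 to 133916 normalized counts in the controls and to 100910 to 116477 in sox8 CRISPR. Sums of markers of other tissues differed more between groups, at 554 and 977 against 54071 and 6825 for 13 organizer genes, at 1782 and 3221 against 17216 and 10180 for 10 neural plate genes and at 3489 and 8367 against 14128 and 35529 for 6 muscle genes. Sums of 9 endoderm genes were 904 and 443 against 2533 and 1151, and of 7 epidermis genes 953 and 511 against 498 and 527. Among the markers, 9 organizer, 4 epidermis, 4 endoderm, 1 neural plate and 1 muscle gene were listed at 0 in at least 1 library. The part of tissue makeup in the ribosomal protein values below was not tested, and in tissue fewer cells of a type and less RNA per cell cannot be told apart.

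Ribosomal protein genes took 7.07% of all reads on genes in control replicate 1 (95% Wilson interval 7.06 to 7.08), 2.86% in control replicate 2 (2.85 to 2.87), 1.62% in sox8 CRISPR replicate 1 (1.61 to 1.62) and 1.99% (1.99 to 2.00) in its replicate 2. Control replicate 1 therefore stood apart from all other libraries, with 2.47 times the share of control replicate 2, which in turn was 1.77 times that of sox8 CRISPR replicate 1 and 1.44 times that of sox8 CRISPR replicate 2. The intervals treat each read as a separate draw and leave out the spread between replicates. PCR copies carried no molecular identifiers and cannot be counted as separate molecules, so the intervals can be too narrow even for counting error. The mean share was 4.97% ± 2.98 (SD, n = 2) in controls and 1.81% ± 0.264 (SD, n = 2) in sox8 CRISPR, a difference of -3.16 percentage points. Both sox8 CRISPR libraries lay below both controls, and the exact permutation test, two-sided, gave p = 0.333, the smallest p that 2 against 2 libraries allow. Without control replicate 1 the difference was -1.06 percentage points.

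**Figure D1:**
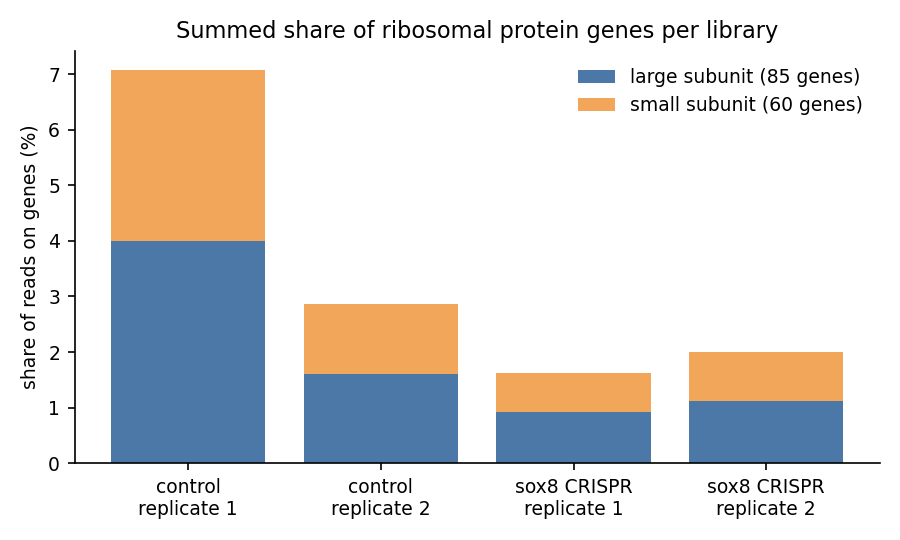
Share of all reads on genes (%, y axis) taken by the 145 ribosomal protein genes in each of the 4 libraries, stacked by subunit. The share is 7.07% in control replicate 1 and 2.86%, 1.62% and 1.99% in the others, while the large subunit takes slightly more than the small subunit in every bar.

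The 2 subunits kept a near constant proportion while the total moved. Reads on large subunit genes were 1.31, 1.26, 1.30 and 1.27 times those on small subunit genes in control replicates 1 and 2 and sox8 CRISPR replicates 1 and 2. Large subunit genes took 4.01%, 1.60%, 0.915% and 1.12% of reads in that order of libraries, and small subunit genes 3.06%, 1.26%, 0.703% and 0.876%.

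Ribosomal protein genes were among the abundant genes of the tissue. Of the 145 genes, 136 had a mean of 1000 or more normalized counts over the 4 libraries, against 15.0% of all genes, and 124 lay above the 90th percentile of the table, although only 7 were among the 200 most abundant genes and 0 among the 20 highest of any library. The median ribosomal protein gene had 9370 normalized counts in control replicate 1, 2728 in control replicate 2, 1289 in sox8 CRISPR replicate 1 and 2461 in its replicate 2. The median of all genes stayed at 81.2, 98.6, 106 and 88.2. Each gene had at least 26 reads in every library. Transcript lengths were not used here, so the counts below are not per length and do not rank genes by number of mRNA molecules.

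The gene with the most reads was rpl36.S, a large subunit gene, with 87475 and 12414 normalized counts in control replicates 1 and 2, against 6807 and 11298 in sox8 CRISPR replicates 1 and 2. The small subunit gene rps12.L followed, with 83784 and 15323 in the controls, against 5069 and 7933. For rps20.L, which encodes a protein of the small subunit's head, the values were 53346 and 10802 against 4153 and 9703, and for its homeolog rps20.S they were 39225 and 8634 against 4126 and 10944. In all of these control replicate 1 was the highest library by several fold and sox8 CRISPR replicate 1 the lowest, but rps20.S in sox8 CRISPR replicate 2 exceeded control replicate 2, so that its groups overlapped. The next highest means were those of rpl27.S (15290 normalized counts), rpl36a.L (14545), the stalk gene rplp1.L (14077) and rps19.S (13704).

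The lowest means were found for rps27l.S (82.0 normalized counts), rps9.L (247), rps19.L (471), rplp0.S (573) and rps27l.L (642). For rps27l.S, rps9.L, rps19.L and rplp0.S the other homeolog of the family was higher. The mean .L share of the rplp0 pair was 69.5%, and the shares of the other pairs are given with the balance of pairs. The gene rps27l is a paralog of rps27, and in human its counterpart is a target of p53.

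**Figure D2:**
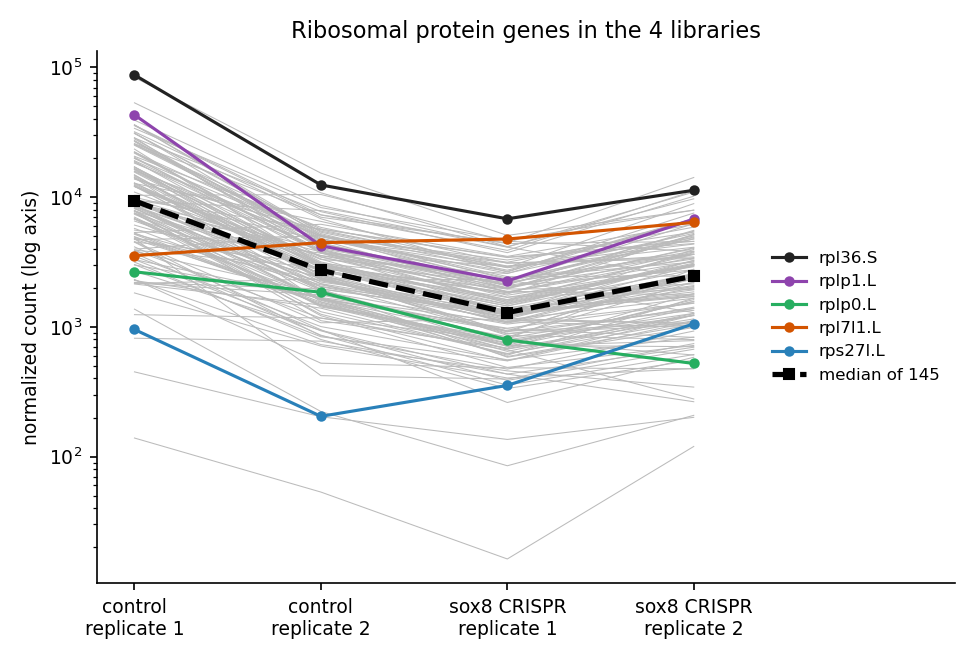
Normalized counts (y axis, log scale) of the 145 ribosomal protein genes in the 4 libraries, 1 grey line per gene, with the median as a dashed black line and 5 named genes in colour. The median runs from 9370 in control replicate 1 through 2728 and 1289 to 2461 in sox8 CRISPR replicate 2, while rpl7l1.L runs from 3540 to 6384 against this course.

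The libraries followed a common order in most genes. Control replicate 1 was the highest library for 137 of 145 genes and sox8 CRISPR replicate 1 the lowest for 126. Control replicate 1 was also highest for 5280 of all 21531 genes and for 1393 of the 3226 with a mean of 1000 or more. Such background counts are not given here for the lowest library or for the full orders of ribosomal protein genes below. The order control replicate 1, control replicate 2, sox8 CRISPR replicate 2, sox8 CRISPR replicate 1 held for 73 genes, and for 49 genes the middle libraries were exchanged. A further 14 genes had sox8 CRISPR replicate 2 as the lowest library with the controls on top, and the other 9 genes took 9 different orders.

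The comparison of sox8 CRISPR with control addressed whether levels of these mRNAs differed after the knockdown. No ribosomal protein gene passed the test: limma on log2(normalized count + 1), with Benjamini-Hochberg adjustment over all 21531 genes and calls at adjusted p under 0.05 and a log2 fold change beyond 0.58, called 0 of 145, while over all genes it called 0.19% as lower and 0.144% as higher. The smallest adjusted p was 0.359. At an unadjusted p under 0.05, 45 of 145 genes were lower in sox8 CRISPR and 0 higher, against 3.79% of all genes lower. Among the count tests on recovered reads, edgeR called 0 genes, with 0.506% of all genes called in either direction, and had 67 of 145 at an unadjusted p under 0.05, against 6.58% of all genes. DESeq2 called 6 genes, all lower, with 1.02% of the genes it tested called lower.

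The fitted differences pointed one way. The median log2 fold change of ribosomal protein genes was -1.56, against -0.16 for all genes and -0.21 for the 3226 with a mean of 1000 or more. Of the 145 genes, 143 had a negative value, against 11753 of all 21531 genes. The ribosomal protein genes lay between -2.59 and 0.47. Large subunit genes had a median of -1.63 and small subunit genes of -1.47, and the .L and .S copies had medians of -1.59 and -1.51. The size rested on control replicate 1. Without it the median was -0.56, against -0.17 for all genes and 0.00 for the 3226 with a mean of 1000 or more. In that fit 136 of 145 ribosomal protein genes were negative, against 11773 of all 21531 genes. Without control replicate 2 the median was -2.58.

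**Figure D3:**
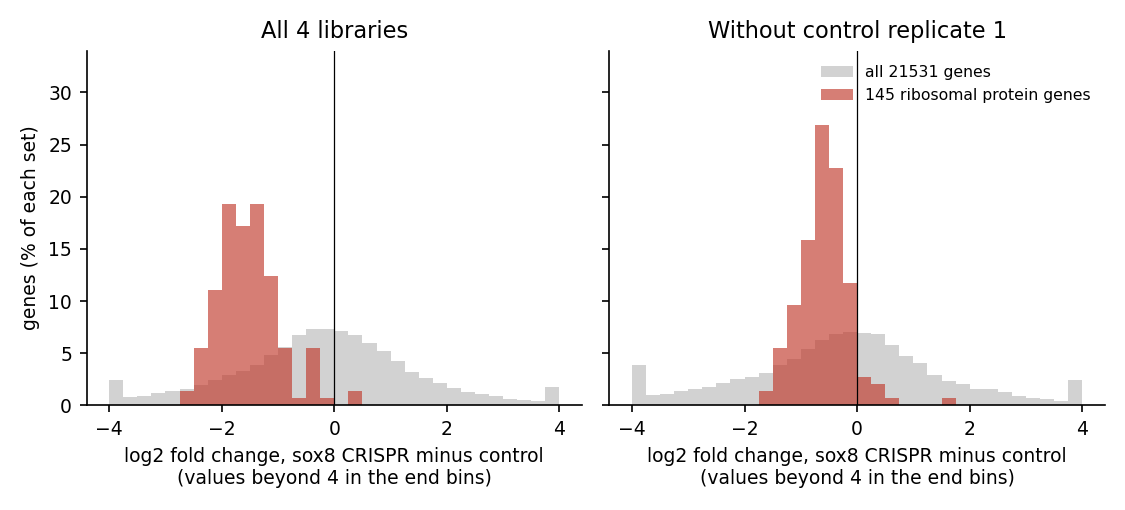
Percentage of genes (y axis) by log2 fold change of sox8 CRISPR minus control (x axis) for all 21531 genes in grey and the 145 ribosomal protein genes in red, with all libraries on the left and without control replicate 1 on the right. The red bars centre on -1.56 on the left and -0.56 on the right, and the grey bars near 0 in both panels.

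Both sox8 CRISPR libraries were below both controls for 89 ribosomal protein genes, 61.4% of the group. That order held for 19.1% of all genes and for 22.2% of the 3226 with a mean of 1000 or more. The opposite order, found for 17.0% of all genes and 13.5% of those 3226, was seen for 1 ribosomal protein gene. The large subunit had 59 of its 85 genes with both sox8 CRISPR libraries below both controls and the small subunit 30 of its 60. Compared with control replicate 2 alone, both sox8 CRISPR libraries were lower for 91 of the 145 genes, against 32.8% of all genes. With CPM, which scales by the library total, in place of the authors' size factors the count against both controls was 117, against 13.7% of all genes.

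Among the largest negative fold changes were those of rpl14.S, rps27.S, rps12.L and rpl22l1.L. For rpl14.S, a large subunit gene on chromosome 6S (43887077 to 43894922, v10.1 assembly), normalized counts were 13981 and 2406 in control replicates 1 and 2, against 890 and 1035 in sox8 CRISPR. Its groups did not overlap, and the log2 fold change was -2.59 (SE 0.83, limma adjusted p = 0.375), or -1.33 without control replicate 1. The small subunit gene rps27.S had 14508 and 2363 against 927 and 1061 normalized counts, again without overlap, with a log2 fold change of -2.56 (SE 0.84, limma adjusted p = 0.411) that was -1.25 without control replicate 1.

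The gene rpl22l1.L, a paralog of rpl22, had 8177 and 1926 normalized counts in controls, against 583 and 989 in sox8 CRISPR, and a log2 fold change of -2.38 (limma adjusted p = 0.421). The genes that DESeq2 called included rpl14.S, rps27.S, rps12.L and rpl37a.S, at adjusted p between 0.0184 for rpl14.S and 0.0487 for rpl37a.S. In these the sox8 CRISPR libraries lay below both controls, and control replicate 1 had 5.47 times (rps12.L) to 6.21 times (rpl37a.S) the normalized count of control replicate 2.

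Only 2 genes had a positive fitted value, rpl7l1.L and rps27l.L. Both are paralogs by symbol, but so are rpl22l1.L, with a value of -2.38, and rps27l.S, with -0.93. Normalized counts of rpl7l1.L, a paralog of rpl7 on chromosome 5L (25070387 to 25076636), were 3540 and 4459 in control replicates 1 and 2, against 4754 and 6384 in sox8 CRISPR. This was the single ribosomal protein gene with both sox8 CRISPR libraries above both controls, and its log2 fold change of 0.47 (SE 0.78) had a limma adjusted p of 0.914. Normalized counts of rps27l.L were 954 and 204 against 354 and 1055, so that each group held a low and a high library. Its log2 fold change was also 0.47 (SE 0.85, limma adjusted p = 0.924), and it turned negative without control replicate 2 (-0.64) or without sox8 CRISPR replicate 2 (-0.32).

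By role, the stalk proteins, which project from the large subunit and bring in the elongation factors, did not move alike. The gene rplp1.L had 43056 and 4218 normalized counts in controls, against 2261 and 6774 in sox8 CRISPR, so that control replicate 1 was 10.2 times control replicate 2 and the groups overlapped. By contrast rplp0.L, which anchors the stalk, had 2656 and 1847 against 793 and 522, a factor of 1.44 between the controls and no overlap. Its homeolog rplp0.S had 817 and 776 against 433 and 265. The log2 fold changes were -1.78 for rplp1.L, -1.78 for rplp0.L and -1.23 for rplp0.S, and without control replicate 1 they were -0.11, -1.52 and -1.19 (limma adjusted p of 0.798, 0.634 and 0.801 with all libraries). For the third stalk protein, rplp2.L had 7829 and 1423 against 813 and 2782 normalized counts, with overlap. Its homeolog rplp2.S had 6793 and 1251 against 548 and 1230, without overlap, though control replicate 2 and sox8 CRISPR replicate 2 nearly met. Control replicate 1 was 5.50 and 5.43 times control replicate 2 in these homeologs, and without it their log2 fold changes were 0.08 and -0.61.

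Among the proteins that bind the 5S ribosomal RNA, rpl5.L had 25836 and 7308 normalized counts against 4382 and 4552, and rpl11.L had 6546 and 2034 against 1137 and 1662. These 2 proteins are also known to restrain Mdm2 in mammalian cells when ribosome assembly fails. Their 4 homeologs had a median log2 fold change of -1.46, or -0.55 without control replicate 1, and both sox8 CRISPR libraries were below both controls for 3 of the 4 (19.1% of all genes), with rpl11.S as the exception. The 12 genes of the proteins at the rim of the peptide exit tunnel (rpl19, rpl22, rpl23a, rpl26, rpl31 and rpl35), where the nascent chain meets targeting factors and chaperones, had a median of -1.75, from -2.24 for rpl31.L to -0.59 for rpl19.S, and of -0.59 without control replicate 1. The value of rpl19.S turned to 0.34 without control replicate 1 and to 0.11 without sox8 CRISPR replicate 1. In rpl31.L, normalized counts were 17092 and 3093 against 1227 and 1930, whereas rpl19.S had 12100 and 3308 against 2574 and 6823 and overlapping groups. The gene rpl3.S, for a large protein close to the peptidyl transferase centre, had 5569 and 3701 against 2939 and 3623 normalized counts. Its log2 fold change was -0.48, and its groups did not overlap, though control replicate 2 and sox8 CRISPR replicate 2 nearly met.

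On the small subunit, rps3.L, for a protein at the mRNA entry channel, had 5214 and 2106 normalized counts against 1194 and 2049, and rps6.L, for the protein that S6 kinase phosphorylates, had 13752 and 5582 against 2855 and 4109. In both genes the groups did not overlap, though in rps3.L control replicate 2 and sox8 CRISPR replicate 2 nearly met. The homeolog rps3.S overlapped between groups, at 8558 and 2728 against 1252 and 3952. For rps27a.L, which encodes ubiquitin fused to a ribosomal protein, the values were 25702 and 5001 against 3277 and 5369, with overlap. The gene rpsa.L, whose product is also known as a laminin receptor precursor, had 1242 and 1169 against 665 and 278, and rpsa.S had 2163 and 2340 against 2309 and 1286.

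The libraries differed unequally across the group. Between the controls, 124 of 145 genes were more than 2-fold higher in control replicate 1. The same held for 5065 of all 21531 genes and for 1126 of the 3226 genes with a mean of 1000 or more. Among the 118 nuclear genes of the respiratory chain, described below, it held for 87. The median difference of log2(normalized count + 1) for ribosomal protein genes was 2.10, against -0.06 for all genes and 0.46 for those 3226. The 15 ribosomal protein genes that differed by less than 1.5-fold between the controls were rpl7l1.L and both homeologs of rpl4, rpl6, rpl7, rplp0, rps2, rps4x and rpsa. This list was drawn up after the values were seen. Control replicate 2 exceeded sox8 CRISPR replicate 1 by a median of 0.97 and sox8 CRISPR replicate 2 by 0.17 on the log2 scale, against -0.04 and 0.25 for all genes. For the 3226 genes with a mean of 1000 or more these medians were 0.20 and -0.23.

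The genes that differed little between the controls mostly carry low numbers. Ribosomal proteins were named from their positions on gels, so that the numbers roughly rise as the proteins get smaller. Over 42 rpl families with a plain number, taken as the mean of the homeologs, the difference between control replicates 1 and 2 was larger at higher numbers (Spearman's rho 0.86). It was 1.03 at the median on the log2 scale for the 10 families numbered up to 10 (range -0.29 to 1.89) and 2.42 for the 22 numbered 20 and above (1.89 to 3.51). Over 30 rps families rho was 0.71, with medians of 1.36 up to number 10 and 2.41 from 20. For control replicate 2 minus sox8 CRISPR replicate 1, rho was 0.31 for rpl and 0.17 for rps families, and the medians of the low and high numbered rpl families were 0.87 and 1.11. Between the sox8 CRISPR libraries, replicate 2 minus replicate 1, rho was 0.59 for rpl and 0.11 for rps families, with medians of 0.39 and 0.98 for low and high numbered rpl families. For control replicate 2 minus sox8 CRISPR replicate 2 it was -0.33 and -0.01. This description was chosen after the values were seen, its points share the same libraries, and no p is given.

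**Figure D4:**
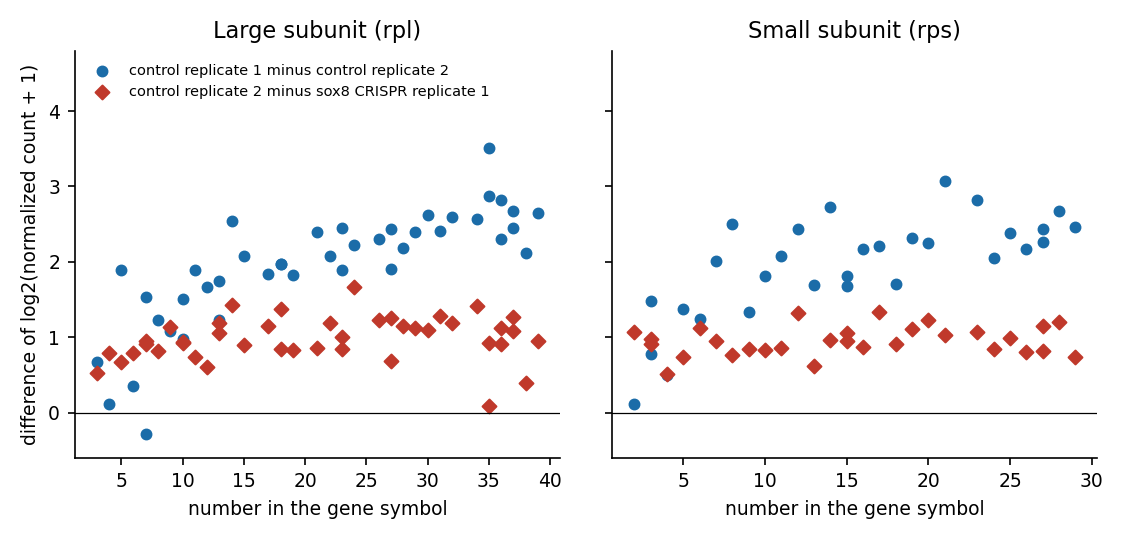
Difference of log2(normalized count + 1) per ribosomal protein family (y axis, mean of its homeologs) against the number in its symbol (x axis), for rpl families on the left and rps families on the right. Circles, control replicate 1 minus control replicate 2, climb with the number (Spearman's rho 0.86 and 0.71), while diamonds, control replicate 2 minus sox8 CRISPR replicate 1, show a weaker relation (0.31 and 0.17).

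Ribosomal protein genes varied most between the controls. The SD of log2(normalized count + 1) had a median of 1.31 over ribosomal protein genes, 1.15 over all genes and 0.78 over the 3226 genes with a mean of 1000 or more. Within groups, ribosomal protein genes had a median SD of 1.49 between the controls and 0.58 between the sox8 CRISPR libraries, whereas all genes had 0.70 and 0.97. When the group's median deviation was taken out of each library the SD of ribosomal protein genes was 0.39. Without that step, the SD over the libraries other than control replicate 1 was 0.60.

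The steadiest genes were rpl7l1.L (SD 0.35), rpl6.S (0.36), rpl4.L (0.38), rpl3.S (0.39) and rpl7.L (0.39), all assigned to the large subunit by symbol only. Normalized counts of rpl4.L were 4707 and 5012 in controls, against 3150 and 5871 in sox8 CRISPR, and those of rpl7.L were 5338 and 6175 against 3494 and 6170, so that control replicate 1 was not the highest library in either. Normalized counts of rpl6.S were 2199 and 1959 against 1233 and 1767. The most variable genes were rps21.L (SD 1.92), rplp1.L (1.83), rps27.S (1.83), rpl14.S (1.82) and rps12.L (1.77). For rps21.L, a small subunit gene, normalized counts of 14192 and 1560 in the controls stood against 605 and 1667, with control replicate 2 and sox8 CRISPR replicate 2 close together.

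The order of the genes by level was similar between most libraries. Spearman's rho across the 145 genes was 0.96 for control replicate 2 with sox8 CRISPR replicate 1 and 0.90 for the sox8 CRISPR libraries with each other, but 0.79 for the controls and 0.69 for control replicate 1 with sox8 CRISPR replicate 1. Over all genes these values were 0.87, 0.80, 0.89 and 0.82. Genes are not independent replicates.

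The balance of homeologs varied little between libraries. In 66 pairs the .L copy held a median of 54.2% of the pair's normalized counts (mean over libraries), and 36 pairs had more than 50% on .L. The library medians were 52.2%, 53.5%, 53.0% and 54.5% in control replicates 1 and 2 and sox8 CRISPR replicates 1 and 2. The range of the .L share over the 4 libraries had a median of 8.78 percentage points, against 14.8 over the 1867 homeolog pairs of the table with a summed mean of 1000 or more. It was under 10 points in 41 of 66 ribosomal protein pairs (62.1%), against 31.0% of those 1867. In 58 of 66 pairs (87.9%) the same homeolog was ahead in all 4 libraries, against 71.0% of the 1867. Most ribosomal protein pairs had summed means well above 1000, and the part of abundance in these differences was not tested. Across pairs, Spearman's rho of the .L share was 0.97 between the controls, 0.92 between the sox8 CRISPR libraries and 0.84 to 0.94 across groups, lowest for control replicate 1 with sox8 CRISPR replicate 2. How alike the homeologs are in sequence was not examined, and how reads that match both were counted is not stated. The shares are shares of counted reads, not per length.

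Few pairs were one-sided. The pair rps19, whose gene is mutated in Diamond-Blackfan anaemia in human, was the most uneven, with .L shares of 3.88% and 2.61% in controls, against 1.79% and 2.55% in sox8 CRISPR, and it was the only pair beyond 90% on either copy, against 12.6% of the abundant pairs. Next came rpl12 with a mean .L share of 16.4%, rps9 with 19.6%, rpl19 with 25.2% and rps21 with 27.2%. The row with the bare symbol rps9 enters neither copy, and its bearing on the levels and share of rps9 was not examined. On the other side were rpl10, for a protein that joins the large subunit late in its assembly, with 78.9%, rps12 with 78.8%, rpl8 with 75.9%, rpl37a with 72.6% and rpl4 with 72.5%. For rpl10 the .L shares were 79.4% and 79.7% against 76.2% and 80.3%, so that all 4 libraries lay within 4.02 points while the summed counts of the pair changed several fold. The pair rps27l, with a summed mean below 1000, had 88.0%.

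Among the pairs closest to an even share were rps14 (49.5% on .L), rpl7a (47.4%), rps20 (52.6%) and rpl34 (47.2%). In rps14 the .L shares were 49.6% and 50.8% in controls, against 46.9% and 50.9% in sox8 CRISPR. In rpl7a they were 41.1% and 41.0% against 47.1% and 60.6%, so that sox8 CRISPR replicate 2 alone had more reads on .L. Shares between 40% and 60% were found for 27 of 66 pairs (40.9%), against 29.2% of the abundant pairs.

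**Figure D5:**
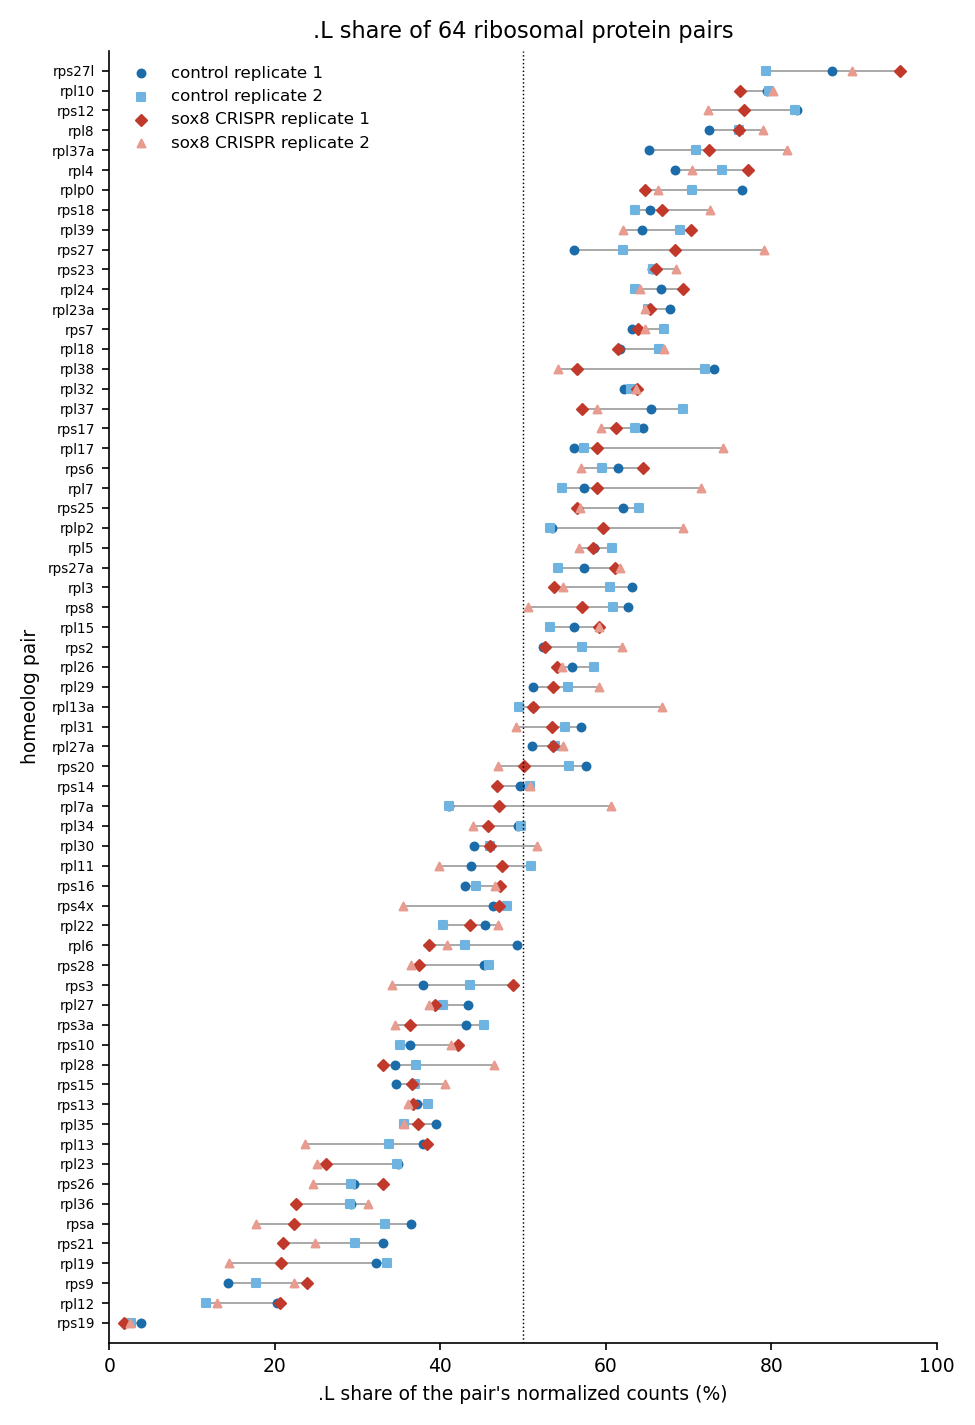
Share of each pair's normalized counts that lies on the .L homeolog (%, x axis) for 64 of the 66 ribosomal protein pairs (y axis, ordered by mean share), with 1 marker per library and a grey line for the range. Most lines are short, the shares run from 2.71% for rps19 to 88.0% for rps27l, and rps27 has the longest line.

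No change of balance was called between groups. Limma on the log2 ratio of .L to .S, fitted over all 5640 homeolog pairs of the table, called 0 of 66 ribosomal protein pairs and 0% of all pairs, and at an unadjusted p under 0.05 it had 4 ribosomal protein pairs (6.06%), against 7.15% of all pairs. The absolute difference of log2 ratios between groups had a median of 0.27 over ribosomal protein pairs, 0.92 over all pairs and 0.50 over the abundant pairs. The 4 pairs, named after their values were seen, were rpl19, rpl38, rpsa and rps27. In rpl19 the .L share was 32.2% and 33.5% in controls, against 20.7% and 14.4% in sox8 CRISPR, without overlap, with a difference of log2 ratios of -1.22 (SE 0.40, limma adjusted p = 0.67). Without sox8 CRISPR replicate 1 that fit called rpl19 alone among the 66 pairs (limma adjusted p = 0.0444), but it then called 13.3% of all pairs. In rpl38, a gene needed for Hox mRNA translation in mouse, the .L share was 73.0% and 71.9% against 56.5% and 54.2%. In rps27 it moved the other way, from 56.1% and 62.1% to 68.4% and 79.1%, and in rpsa it was 36.5% and 33.3% against 22.4% and 17.8%. The groups did not overlap in any of these 4, but the pairs were picked by p on the same ratios. Their lack of overlap is therefore no further support for a change of balance.

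In the genome the ribosomal protein genes were scattered. In the RefSeq annotation of the v10.1 assembly, 131 of 145 symbols were matched, all as protein-coding genes. These lay on all 18 chromosomes, with 4 to 11 on each, the 69 .L genes on L and the 62 .S genes on S chromosomes. Their median span from start to end, introns included, was 6431 bases, against 17180 for all protein-coding genes of the annotation. An annotated snoRNA gene, for the small RNAs that guide modification of ribosomal RNA and are often processed from introns, lay within the span of 46 of them (35.1%), against 0.383% of all protein-coding genes. Those 46 held 123 of the 579 annotated snoRNA genes (21.2%). The largest numbers were 6 each in both homeologs of rpl4 and of rps7 and 5 each in both of rpl7a and of rpl17. The 46 host genes had a median log2 fold change of -1.55 and the 85 matched genes without a snoRNA of -1.56, or -0.66 and -0.51 without control replicate 1. Both sox8 CRISPR libraries were below both controls for 33 of the 46 (71.7%) and 47 of the 85 (55.3%), against 19.1% of all genes, and the difference between these sets was not tested.

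Among other genes of the translation pathway limma called 0 genes of any list. At an unadjusted p under 0.05 it had 0 genes lower among elongation factors, 0 among other TOP mRNAs and 5 among biogenesis genes, against 3.79% of all genes, and edgeR and DESeq2 called 0 of them. Of the ribosomal proteins outside the symbol rule, fau.L, which encodes a ubiquitin-like protein fused to a small subunit protein, had 11909 and 2304 normalized counts in controls, against 1075 and 1435 in sox8 CRISPR. The scaffold gene rack1.S had 3607 and 4062 against 2480 and 3694, a much smaller spread. The 17 other TOP mRNA genes had a median log2 fold change of -0.64, or -0.32 without control replicate 1. With all libraries 14 of the 17 were negative, against 11753 of all 21531 genes. Both sox8 CRISPR libraries were below both controls for 6 of them (35.3%, against 19.1% of all genes), among them naca.S at 8517 and 2540 against 1408 and 2061. The 11 elongation factor genes also had a median of -0.64, or -0.24 without control replicate 1 and -0.31 without sox8 CRISPR replicate 2. The count with both sox8 CRISPR libraries below both controls was 2 (18.2%), near the share of all genes, and the abundant eef1a1.L had 31203 and 21756 against 27210 and 22009. Ribosome biogenesis genes, 45 in all, had a median of -0.73, or -0.44 without control replicate 1, with 40 negative. Of these 45, 25 (55.6%) had both sox8 CRISPR libraries below both controls. Within that list myc.L, a transcription factor known to drive ribosome production, had 1468 and 2529 against 396 and 381 (limma adjusted p = 0.32).

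Mitochondrial ribosomal protein genes had a fitted change near 0 with all libraries. Limma, edgeR and DESeq2 called 0 of them (3 at an unadjusted p under 0.05 in limma, 2 lower and 1 higher). Of their 94 genes, 51 had a negative log2 fold change, against 11753 of all 21531 genes. The median was -0.07, and its sign turned with the library left out. The median was 0.38 without control replicate 1 and 0.31 without sox8 CRISPR replicate 1, against -0.54 without control replicate 2 and -0.55 without sox8 CRISPR replicate 2. Both sox8 CRISPR libraries were below both controls for 13 (13.8%) and above for 13, against 19.1% and 17.0% of all genes, and sox8 CRISPR replicate 2 exceeded sox8 CRISPR replicate 1 by a median of 0.97 on the log2 scale. Between the controls they shared the direction of the cytosolic genes, with a median of 0.94 in favour of control replicate 1. The 118 nuclear genes of the respiratory chain, a list added after the data were seen, had a median of 1.68 between the controls and of -0.51 between groups, which turned to 0.20 without control replicate 1 and 0.15 without sox8 CRISPR replicate 1. No test was made of the difference between these lists.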

How the data were processed

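RNA-seq libraries of ventral mesoderm (2 control, 2 sox8 CRISPR) were analysed from the deposited table of normalized counts. Per the labels and the study's methods, the authors trimmed reads with cutadapt 4.4, removed rRNA reads, aligned to X. laevis v10.1 with HISAT2 2.2.1, counted per gene with featureCounts 2.0.6, removed genes with low means and divided by a DESeq2 size factor per library. Strand and multi-mapping settings are not given in the sources used here. The deposited unit is a signal that is never negative. One read was worth 1.56, 0.795, 0.625 and 1.21 normalized counts in control replicates 1 and 2 and sox8 CRISPR replicates 1 and 2, and in these steps 100% of the values were whole reads (tolerance 0.1). The table holds 0 other columns with values.

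Groups were compared in R 4.3.3 with limma 3.58.1 (intensity trend, two-sided, Benjamini-Hochberg) on log2(normalized count + 1), which understates changes of low genes. Alternatives were edgeR 4.0.16 (quasi-likelihood) and DESeq2 1.42.0 on recovered reads, pseudocounts of 0.5 and 5, TMM, quantile and CPM scaling (CPM added after the data were seen), filters at a mean of 50 or at 10 counts in 2 libraries, no trend, a replicate block, summed homeologs and leaving out each library. The fits were checked on simulated counts. A share of reads was compared by exact permutation.

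Genes were named by rule: the 8 highest and 5 lowest means, the 5 largest changes in each direction where that many exist, the 5 smallest and largest SDs, the 5 highest, lowest and most even .L shares among pairs with a summed mean of 1000 or more, and genes by role. Stalk, exit tunnel, elongation, TOP, biogenesis, mitochondrial ribosomal protein and tissue marker lists were written by hand. The members and lists were chosen with earlier results of these data known. No sequences or transcript lengths were used here. A few genes that the rule for named genes selects are not reported here by name.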

Additional observations from a re-analysis of the deposited data

How the results depend on the processing

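With 2 libraries per group, the replicate spread limits the comparisons, and counting error adds to it where reads are few, as in rps27l.S with 26 reads in sox8 CRISPR replicate 1. Ribosomal protein genes called numbered 0 under the alternatives that kept all libraries, except DESeq2, with 6, and a crossed pairing given below. The fold threshold alone, which involves no test, passed 134 genes. The share of all genes beyond that threshold is not given here, so 134 is not read as a result about this group. The median log2 fold change of ribosomal protein genes was negative under every alternative, between -1.86 with DESeq2 and -1.28 with quantile scaling. It was -2.58 to -0.56 when a library was left out. CPM scaling, added after the data were seen, moved the median of all genes from -0.16 to 0.13, and relative to it ribosomal protein genes were at -1.44, against -1.40 with the deposited size factors. The number with both sox8 CRISPR libraries below both controls was 50 of 79 with homeologs summed. It was 90 to 141 when a library was left out, an alternative added after the data were seen. That order is easier to meet when a group holds a single library, so these counts do not compare with the count for all libraries. The shares of all genes under these settings are not given here. The difference in summed share was -5.26 to -1.06 percentage points without a library. The median spread was 0.39 after removing each library's median deviation and 0.60 to 1.57 without a library. Called pairs numbered 0 to 1 without a library, with 1 without sox8 CRISPR replicate 1. Of 53 named genes, 8 changed direction under some setting, and rpl4.L did so at 0.033 with quantile scaling and 0.066 with CPM scaling. When a library was left out, the log2 fold change ran from -1.53 to 0.34 for rpl19.S and from -2.16 to 0.18 for rpl27.S, from -2.38 to 0.080 for rplp2.L and from -0.64 to 1.58 for rps27l.L, from -0.62 to 0.27 for rpl4.L and from -0.72 to 0.10 for rpl7.L, and from -2.34 to 0.47 for rps27l.S and from -0.81 to 0.037 for rpsa.S. The causes were not tested. Libraries share a replicate number only: same-numbered deviations correlated at -0.22 over 21531 genes, and a replicate block called 0 ribosomal protein genes and 0 pairs. The crossed pairing has no basis in the labels, and its correlation is the same value with the opposite sign, 0.22. Which pairing lowers the residual spread is thus set by the values under test. With the crossed pairing the replicate block called 54 ribosomal protein genes among 776 of all genes, and no conclusion is drawn from these calls. Shares per length were not run because transcript lengths were not used.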
